A study of Mus musculus with 9 samples.

Results

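Neutrophils are made in the bone marrow and carry their weapons in granules that are filled in a fixed order. Promyelocytes fill the azurophil granules first, with myeloperoxidase and serine proteases, and stop transcribing these genes as they mature. Specific and later granules follow, and the cell that leaves the marrow mainly transcribes receptors, adhesion molecules and the parts of the oxidase that makes superoxide. Neutrophils enter psoriatic skin and form small abscesses in it, and imiquimod cream brings them into mouse skin.

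The genes described here are 30 symbols of neutrophil granules, receptors, adhesion and the oxidase. They were found in the count table by symbol, which gave 31 rows of 52550 since Itgam stood in 2 rows. Of the 31 rows, 27 had enough counts to be tested, among 22430 genes tested in all. Sorted by role, 4 were azurophil granule genes, 5 were specific or later granule genes and 3 were genes of mature cells. A further 10 were receptors, 3 were adhesion genes, 3 were oxidase genes and 2 were genes of cytoplasmic proteins.

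Messenger RNA was sequenced from the ear dermis of wild-type C57BL/6 mice (C57BL/6J per the methods) of 8 weeks, with 3 libraries in each of 3 groups. All groups were treated on the ear for 5 days and gavaged for 10 days with 200 µl. VAS+H2O mice received vaseline and water, IMQ+H2O mice received imiquimod cream and water as a psoriasis-like model, and IMQ+XYF mice had the same cream with a herbal decoction, Xiao-Yin-Fang (XYF), at 23.3 mg/g. The methods name more than 1 mouse as the source of the ear sheets, without making clear if a library is a pool, so the p-values measure the spread between libraries. Total counts ran from 28756305 to 79836881 per library. Expression is given as CPM, the counts of a gene relative to the library total scaled by TMM factors, and a library with no count was below a floor of 3 counts, between 0.0373 and 0.103 CPM, which covers counting error only. A gene was called where its adjusted p was 0.05 or lower and its log2 fold change was at least 1 in size.

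Several members lie side by side in the genome (GRCm38). Fpr1 and Fpr2 on chromosome 17 point away from each other across a gap of 3883 bp. Trem1 and Trem3, also on chromosome 17, follow each other on the plus strand with 852 bp between them. Clec4d and Clec4e on chromosome 6 point towards each other across 6523 bp, and Prtn3 and Elane on chromosome 10 follow each other with a gap of 3072 bp. RefSeq start sites of GRCm38.p6 were matched for 26 of the 30 symbols. The 250 bases before the start are shown for 6 members on which the results turn, read 5′ to 3′ on the strand of the gene. They are the azurophil gene Ctsg, which had its highest level in control dermis, and 5 genes whose imiquimod-treated libraries were all above the controls. Capitals mark GGAAGT, a core bound by ETS factors such as PU.1, TTGCNNAA, a pattern of C/EBP factors, and TATAAA, each on either strand. None of the 3 patterns overlaps another in these 6 windows.

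Ctsg, chr14:56102575-56102824, minus strand: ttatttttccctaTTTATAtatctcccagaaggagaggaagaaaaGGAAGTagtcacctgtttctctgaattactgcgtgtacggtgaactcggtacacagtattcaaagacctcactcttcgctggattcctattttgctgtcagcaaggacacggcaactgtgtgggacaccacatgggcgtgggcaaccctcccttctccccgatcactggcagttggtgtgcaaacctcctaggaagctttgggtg
Retnlg, chr16:48872358-48872607, plus strand: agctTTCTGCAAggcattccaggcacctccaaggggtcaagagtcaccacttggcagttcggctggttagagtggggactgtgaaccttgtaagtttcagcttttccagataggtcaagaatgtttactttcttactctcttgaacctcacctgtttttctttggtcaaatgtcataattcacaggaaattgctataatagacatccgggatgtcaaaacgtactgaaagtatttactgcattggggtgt
Fpr1, chr17:17883940-17884189, minus strand: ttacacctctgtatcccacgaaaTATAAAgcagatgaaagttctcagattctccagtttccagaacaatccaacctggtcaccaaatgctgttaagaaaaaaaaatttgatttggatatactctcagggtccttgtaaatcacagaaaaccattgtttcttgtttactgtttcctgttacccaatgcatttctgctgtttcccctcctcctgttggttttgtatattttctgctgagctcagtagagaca
Fpr2, chr17:17887574-17887823, plus strand: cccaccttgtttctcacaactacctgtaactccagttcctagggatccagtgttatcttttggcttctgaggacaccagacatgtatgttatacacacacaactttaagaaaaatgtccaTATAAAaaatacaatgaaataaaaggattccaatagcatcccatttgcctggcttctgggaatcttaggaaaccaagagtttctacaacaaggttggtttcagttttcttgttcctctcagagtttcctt
Trem1, chr17:48232489-48232738, plus strand: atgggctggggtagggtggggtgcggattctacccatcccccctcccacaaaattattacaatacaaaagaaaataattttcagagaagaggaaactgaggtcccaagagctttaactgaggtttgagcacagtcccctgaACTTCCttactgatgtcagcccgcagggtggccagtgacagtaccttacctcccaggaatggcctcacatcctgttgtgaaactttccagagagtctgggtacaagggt
Clec4d, chr6:123261857-123262106, plus strand: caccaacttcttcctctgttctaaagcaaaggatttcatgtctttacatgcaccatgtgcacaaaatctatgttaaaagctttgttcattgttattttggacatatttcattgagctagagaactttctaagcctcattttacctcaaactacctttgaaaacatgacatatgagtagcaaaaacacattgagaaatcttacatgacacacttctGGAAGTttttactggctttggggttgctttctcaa

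GGAAGT was in the windows of 9 of the 26 matched members, and these included all 4 azurophil genes, Mpo, Elane, Prtn3 and Ctsg. It was in 19.7% of all 32851 windows of the same length. TTGCNNAA was in the windows of 6 members, among them the later granule genes Ltf and Ngp and the mature cell genes Ly6g and Retnlg, against 9.56% of all windows. TATAAA was in the windows of 9 members, against 12.4% of all windows. In Clec4e and Padi4 its first base lay 29 and 31 bases before the start, while in Fpr1 and Fpr2 it lay 227 and 130 bases before. The match in Padi4 lies inside the GENCODE gene model, into which that window reaches by 33 bases. All 250 bases of the Prtn3 window lie inside its gene model, and so does its GGAAGT match. The TTGCNNAA match of Ngp that begins 11 bases before the start also lies inside the gene model. These were 3 of 12 letter patterns searched, a match is a description of letters and not of a bound site, and 17 of the 29 windows of members reach into the gene model of the GENCODE annotation.

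IMQ+H2O was set against VAS+H2O to find the response of the dermis to imiquimod. Of the 10 receptors 5 were called higher by edgeR, together with 2 of the 4 adhesion rows and 1 later granule gene. The azurophil genes were near or below the floor or did not pass that test. The fitted change, called or not, was above 0 in 8 receptors, 4 adhesion rows and 3 of the 4 tested later granule genes. The fit called 8 of the 27 tested rows higher, namely Fpr1, Fpr2, Trem1, Trem3, Clec4d, Itgam, Itgb2 and Pglyrp1, where 0.646% of all tested genes were called higher. No member was called lower, where 0.348% of all tested genes were. Over the 27 rows the median log2 fold change was 1.36, beside -0.02 over all tested genes. At an unadjusted p under 0.05 in edgeR, 15 rows were higher and 1 was lower, where 2266 and 2428 of the 22430 tested genes were. The 3 IMQ+H2O libraries were all above the 3 VAS+H2O libraries in 15 rows and all below in 1, Ctsg, where 15.1% and 16.5% of all tested genes were so placed. Bulk RNA cannot tell fewer cells of a type from less RNA per cell, and this holds for each level given here.

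The formyl peptide receptors, which sense peptides from bacteria and mitochondria and guide neutrophils to them, had the lowest adjusted p of all members. Fpr1 was at 0.121, 0.139 and 0.134 CPM in the VAS+H2O libraries, at 5.48, 7.23 and 9.75 CPM in the IMQ+H2O libraries and at 5.64, 5.02 and 5.34 CPM in the IMQ+XYF libraries. The control libraries lay close together and far below all 6 imiquimod-treated libraries. Fpr1 rose by a log2 fold change of 5.81 ± 0.29 (SE), or 56.0-fold, with an edgeR adjusted p of 0.000256. Fpr2 was at 0.485, 0.472 and 0.268 CPM in VAS+H2O, at 6.23, 7.18 and 11.3 CPM in IMQ+H2O and at 7.93, 4.64 and 6.32 CPM in IMQ+XYF. It rose by 4.36 ± 0.37 on the log2 scale (edgeR adjusted p = 0.00478). Of the 50-base stretches of the Fpr2 transcripts, 31.5% also stand in another gene, mostly the pseudogene Gm5966, so that part of its count is uncertain, and for Fpr1 this share was 0.0784%. Fpr1 and Fpr2 passed in all 6 fits made without 1 of the libraries of these groups.

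**Figure D1:**
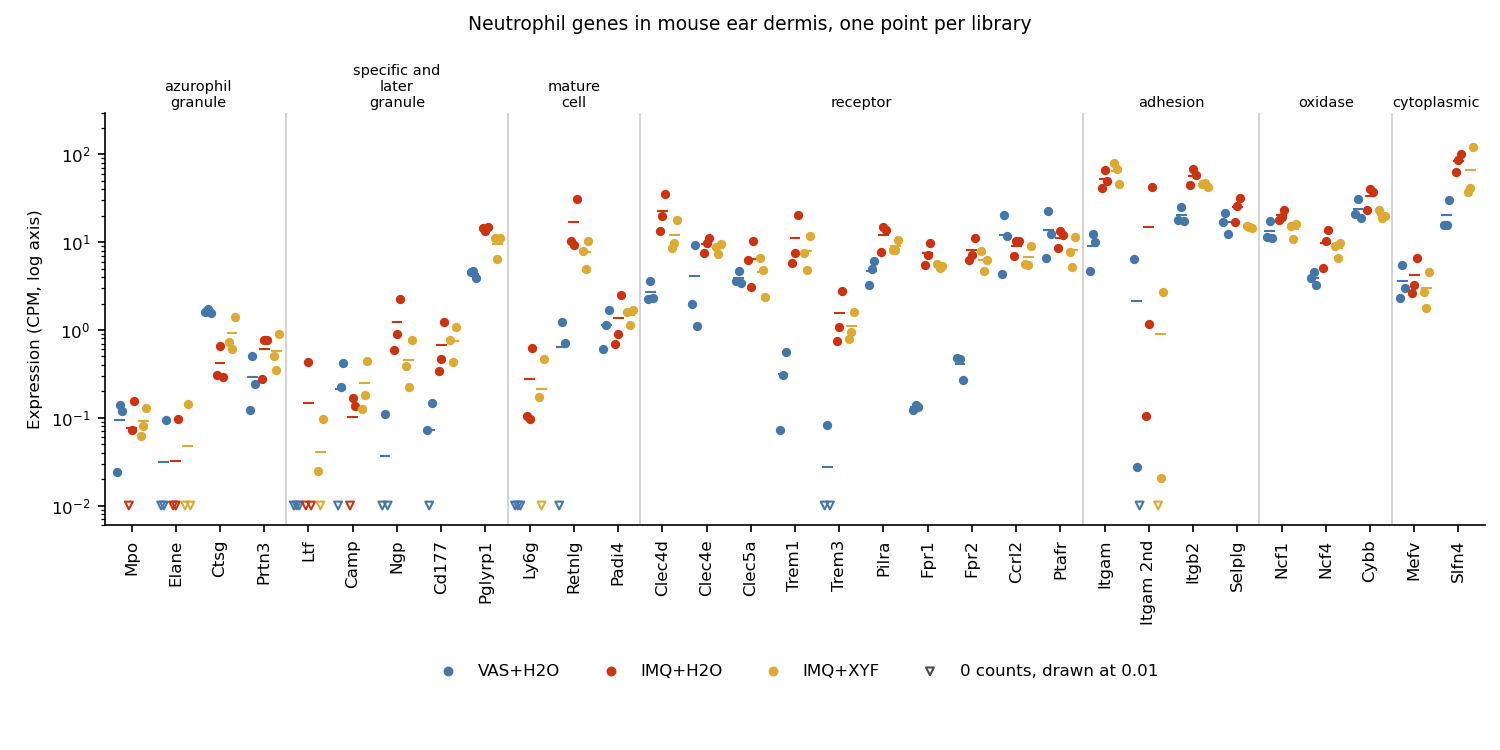
Expression of the 31 rows in each library (CPM on a log axis), grouped by role, with 1 point per library, a bar at the group mean and an open triangle for 0 counts. The points of Fpr1, Fpr2, Trem1, Clec4d, Itgam and Itgb2 in both imiquimod-treated groups sit above all VAS+H2O points, while Mpo and Elane stay below 0.2 CPM in all 9 libraries.

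The TREM receptors signal through the adaptor DAP12 and amplify inflammatory responses of myeloid cells. Trem1 was at 0.0728, 0.306 and 0.563 CPM in VAS+H2O, at 5.82, 7.62 and 20.3 CPM in IMQ+H2O and at 7.50, 4.78 and 11.8 CPM in IMQ+XYF. The third IMQ+H2O library was well above the other two, and no treated library reached down to a control. Trem1 rose by 5.07 ± 0.75 on the log2 scale (edgeR adjusted p = 0.0247). Its neighbour Trem3 had no count in 2 of the 3 VAS+H2O libraries and 0.0834 CPM in the other, against 0.758, 1.09 and 2.77 CPM in IMQ+H2O. With the controls at the floor of 3 counts in each library, Trem3 rose at least 18.5-fold (edgeR adjusted p = 0.0342). In IMQ+XYF it was at 0.796, 0.956 and 1.61 CPM.

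Among the C-type lectin receptors, Clec4d (Mcl), which binds mycobacterial glycolipids, was at 2.23, 3.59 and 2.33 CPM in VAS+H2O, at 13.3, 19.6 and 35.8 CPM in IMQ+H2O and at 8.52, 9.90 and 17.9 CPM in IMQ+XYF. It rose by 3.08 ± 0.44 on the log2 scale (edgeR adjusted p = 0.0247). Clec4e (Mincle), its partner on the cell surface and its neighbour in the genome, was not called (1.22 ± 0.65, edgeR adjusted p = 0.315). The second VAS+H2O library stood at 9.17 CPM, within the range of IMQ+H2O, while the other 2 controls were at 1.99 and 1.11 CPM and the IMQ+H2O libraries at 7.47, 9.68 and 11.1 CPM. Without that control library Clec4e was called (2.61, edgeR adjusted p = 0.0357). Clec5a, a receptor that pairs with DAP12 and DAP10, ran from 3.44 to 4.70 CPM in VAS+H2O and from 3.08 to 10.2 CPM in IMQ+H2O.

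The same second VAS+H2O library was also the highest of all 9 for Ccrl2, a chemerin-binding receptor, and Ptafr, the receptor of platelet-activating factor. Ccrl2 was at 4.29, 20.6 and 11.7 CPM in VAS+H2O and between 7.03 and 10.2 CPM in IMQ+H2O. Ptafr was at 6.67, 22.7 and 12.4 CPM in VAS+H2O and between 8.58 and 13.2 CPM in IMQ+H2O. Both had log2 fold changes below 0 that did not pass the test (Ccrl2 -0.41 ± 0.48, Ptafr -0.30 ± 0.43), and both turned positive, to 0.19 and 0.24, without that library. It was the highest VAS+H2O library in 19 of the 27 tested rows. Pilra, an inhibitory receptor that binds sialylated ligands, was at 3.25, 4.92 and 6.06 CPM in VAS+H2O and at 7.72, 15.0 and 13.8 CPM in IMQ+H2O. These groups did not overlap, but Pilra was not called by edgeR (1.36 ± 0.30, adjusted p = 0.0668), while DESeq2 called it higher (adjusted p = 0.000739). Of its 50-base stretches 20.8% are shared, mostly with Zcwpw1 on the opposite strand.

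Integrins of the beta-2 family hold neutrophils to the vessel wall. Their common chain Itgb2 was at 18.1, 25.1 and 17.5 CPM in VAS+H2O, at 44.8, 67.5 and 57.7 CPM in IMQ+H2O and at 46.4, 47.8 and 43.0 CPM in IMQ+XYF. It rose by 1.49 ± 0.18 on the log2 scale (edgeR adjusted p = 0.0164), with no overlap. Itgam, the CD11b chain that pairs with Itgb2 in the complement receptor Mac-1, was at 4.68, 12.3 and 10.1 CPM in VAS+H2O, at 41.7, 66.6 and 49.9 CPM in IMQ+H2O and at 80.3, 68.2 and 46.5 CPM in IMQ+XYF. It rose by 2.55 ± 0.36 on the log2 scale (edgeR adjusted p = 0.0247). Monocytes and macrophages also carry both chains. Selplg, the ligand of P-selectin on leukocytes, overlapped between the groups, with 17.1, 21.5 and 12.3 CPM in VAS+H2O and 17.2, 25.6 and 32.2 CPM in IMQ+H2O.

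The second row with the symbol Itgam (ENSMUSG00000108596) is named Gm49368 in the GENCODE annotation. It spans positions 128062683 to 128128160 of chromosome 7, on the plus strand, as does Itgam (ENSMUSG00000030786) at 128062640 to 128118491. The models share 3450 bp of exon, which is 68.7% of Itgam and 71.8% of the second model. The second row held 263, 1 and 0 reads in VAS+H2O, 3, 48 and 2195 in IMQ+H2O and 0, 1 and 166 in IMQ+XYF. It thus took 57.7% of the counts of both rows in the first VAS+H2O library and 46.2% in the third IMQ+H2O library, but 5.48% or less in the other 7. The sum of both rows was 11.1, 12.3 and 10.1 CPM in VAS+H2O, 41.8, 67.8 and 92.7 CPM in IMQ+H2O and 80.3, 68.2 and 49.2 CPM in IMQ+XYF. The controls drew together and the third IMQ+H2O library became the highest of all. Fitted as a sum, an alternative added after the data were seen, Itgam rose by 2.60 ± 0.29 on the log2 scale (edgeR adjusted p = 0.0122).

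**Figure D2:**
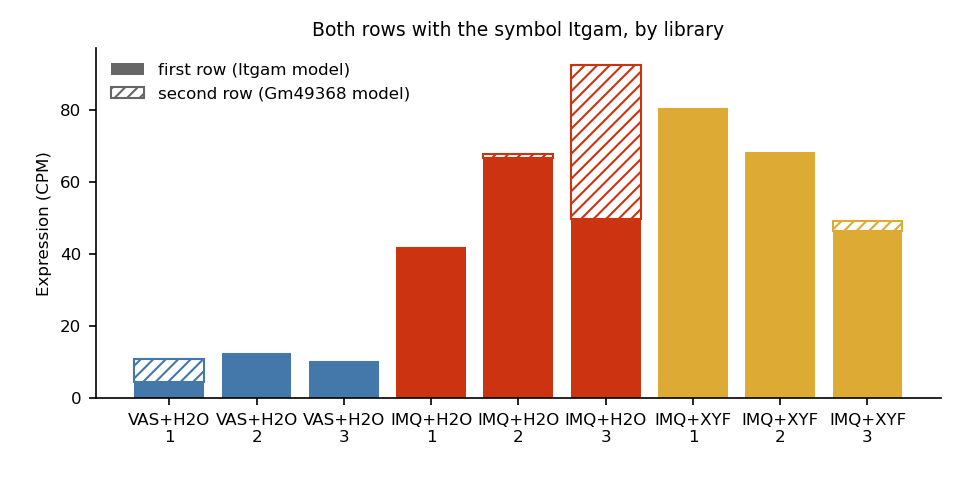
CPM of both rows with the symbol Itgam, stacked by library, with the first row in solid colour and the second row hatched. The hatched part is large in VAS+H2O 1 and IMQ+H2O 3, and the stacks of the 6 imiquimod-treated libraries, from 41.8 to 92.7 CPM, are all above those of the controls.

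The azurophil granule genes were low in every group. Mpo, the enzyme that makes hypochlorous acid, had counts of 1, 5 and 9 in VAS+H2O, of 0, 3 and 8 in IMQ+H2O and of 5, 4 and 8 in IMQ+XYF. Elane, neutrophil elastase, had no count in 6 of the 9 libraries and at most 7 counts in the others. A change of either gene was not detectable at this depth. Prtn3, proteinase 3, was at 0.121, 0.500 and 0.241 CPM in VAS+H2O and at 0.276, 0.776 and 0.761 CPM in IMQ+H2O, which overlapped (1.11 ± 0.62, edgeR adjusted p = 0.339). Prtn3 shares 159 bp of exon with Plppr3 and Mpo 512 bp with Gm11505, both on the opposite strand.

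Ctsg, cathepsin G, was the azurophil gene with the highest level and had the opposite order. It was at 1.60, 1.72 and 1.54 CPM in VAS+H2O, at 0.310, 0.655 and 0.293 CPM in IMQ+H2O and at 0.734, 0.610 and 1.40 CPM in IMQ+XYF. All 6 treated libraries were below all 3 controls. The log2 fold change by imiquimod was -1.94 ± 0.43 and was not called by edgeR (adjusted p = 0.0668), but it was called by DESeq2 (adjusted p = 0.00193) and in the edgeR fit of both groups alone. Mast cells also make cathepsin G, and their part in the level of Ctsg was not tested. The summed level of 7 mast cell markers was between 241 and 453 CPM in VAS+H2O and between 256 and 599 CPM in IMQ+H2O, with 0 of the 7 called by imiquimod in edgeR, 1 higher at an unadjusted p under 0.05 and 1, Fcer1a, called higher by DESeq2.

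Of the specific and later granule genes, Pglyrp1, a peptidoglycan recognition protein, was called. It was at 4.54, 4.67 and 3.95 CPM in VAS+H2O, at 14.5, 13.4 and 14.8 CPM in IMQ+H2O and at 11.2, 6.47 and 11.1 CPM in IMQ+XYF. Both VAS+H2O and IMQ+H2O were tight, and Pglyrp1 rose by 1.70 ± 0.22 on the log2 scale, or 3.25-fold (edgeR adjusted p = 0.0171). Ngp, a cathelicidin-related granule protein, had counts in 1 of the 3 VAS+H2O libraries (0.111 CPM) and was at 0.586, 0.898 and 2.24 CPM in IMQ+H2O. Cd177, a surface protein kept in specific granules, was at 0.0728, 0 and 0.147 CPM in VAS+H2O and at 0.344, 0.461 and 1.23 CPM in IMQ+H2O. Neither overlapped between these groups, and neither was called by edgeR (Ngp 5.32 ± 1.14, adjusted p = 0.0618; Cd177 3.02 ± 0.83, adjusted p = 0.101), while DESeq2 called both. Ltf, lactoferrin, had 18 counts in 1 IMQ+H2O library, at most 6 counts in any other and none in VAS+H2O. Camp, the cathelicidin, had counts of 0, 8 and 31 in VAS+H2O and of 0, 7 and 7 in IMQ+H2O, which overlapped (-1.01 ± 1.17, edgeR adjusted p = 0.656).

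Of the mature cell genes, Retnlg, a resistin-like protein, was at 0, 1.22 and 0.710 CPM in VAS+H2O, at 10.3, 9.39 and 31.0 CPM in IMQ+H2O and at 7.94, 4.90 and 10.4 CPM in IMQ+XYF. The groups VAS+H2O and IMQ+H2O did not overlap, and Retnlg missed the limit in edgeR (4.72 ± 0.97, adjusted p = 0.0561) and was called by DESeq2 (adjusted p = 0.00339). Ly6g, the surface antigen by which mouse neutrophils are usually recognised, had no count in any VAS+H2O library. Its counts were 3, 4 and 32 in IMQ+H2O and 14, 0 and 29 in IMQ+XYF. On the mean over libraries Ly6g was at least 3.30-fold higher in IMQ+H2O than the control floor, and it was too low for the edgeR test, while DESeq2, run without that filter, called it higher. Padi4, the deiminase that citrullinates histones when neutrophils release their chromatin, overlapped between the groups, with 0.606 to 1.70 CPM in VAS+H2O and 0.689 to 2.48 CPM in IMQ+H2O.

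No gene of the oxidase was called in edgeR, and DESeq2 called Ncf4. At an unadjusted p under 0.05 in edgeR 2 were higher, where 2266 of the 22430 tested genes were. Cybb, the gp91 subunit that carries electrons across the membrane, was at 21.1, 31.0 and 19.0 CPM in VAS+H2O and at 23.4, 40.7 and 37.4 CPM in IMQ+H2O, which overlapped. Ncf1 and Ncf4, the p47 and p40 subunits that join it from the cytosol, did not overlap between the groups. Ncf1 was at 11.4, 17.6 and 11.3 CPM in VAS+H2O and at 17.7, 19.5 and 23.5 CPM in IMQ+H2O (0.59 ± 0.22, edgeR adjusted p = 0.182). Ncf4 was at 3.95, 4.61 and 3.24 CPM in VAS+H2O and at 5.10, 10.4 and 13.7 CPM in IMQ+H2O (1.31 ± 0.34, edgeR adjusted p = 0.0913).

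Slfn4, a member of the schlafen family found in myeloid cells, had the highest mean CPM of the members in both imiquimod-treated groups. It was at 15.5, 15.8 and 30.1 CPM in VAS+H2O, at 62.3, 87.1 and 102 CPM in IMQ+H2O and at 37.5, 41.7 and 122 CPM in IMQ+XYF. All treated libraries were above all controls. Slfn4 was not called in edgeR (2.03 ± 0.48, adjusted p = 0.0753), but it was called by DESeq2 (adjusted p = 0.000438), in the edgeR fit of both groups alone and without IMQ+XYF 3. Mefv, which encodes the inflammasome sensor pyrin, ran from 2.30 to 5.47 CPM in VAS+H2O and from 2.62 to 6.67 CPM in IMQ+H2O.

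**Figure D3:**
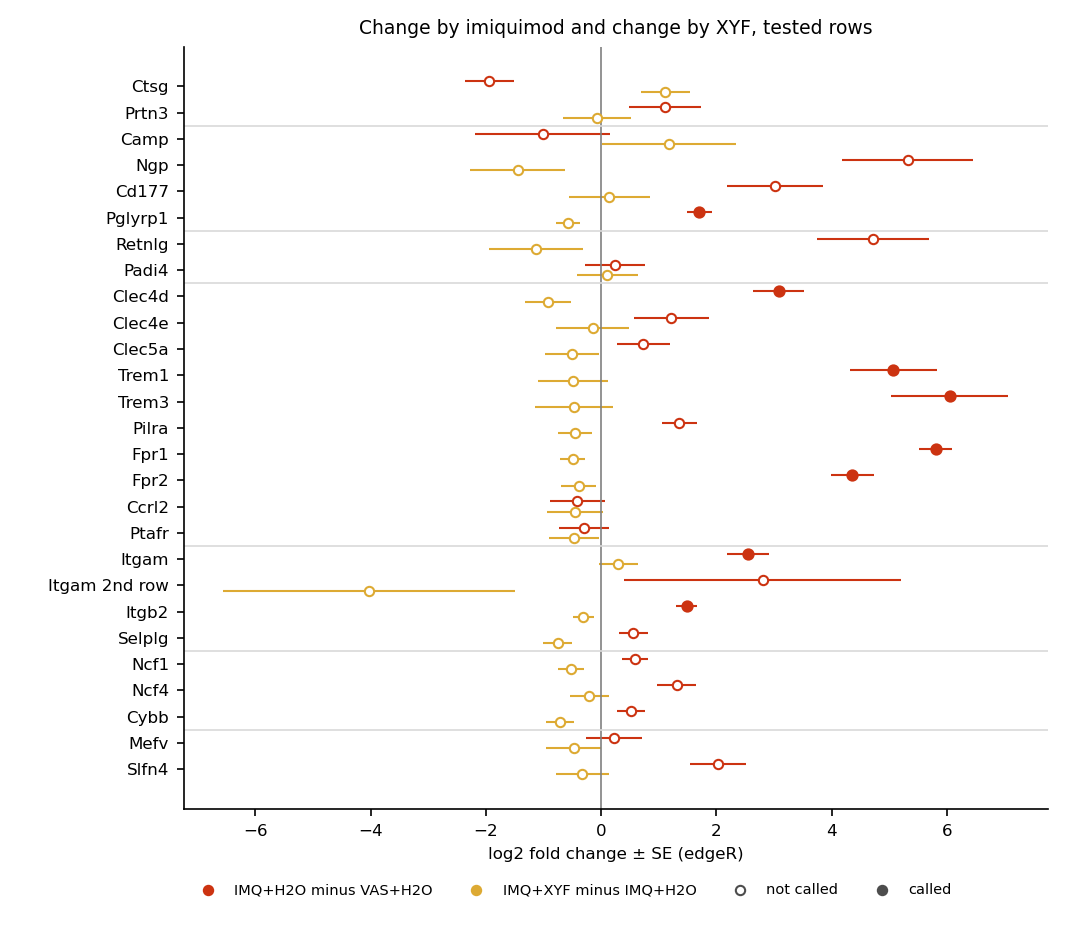
Fitted log2 fold change ± SE (edgeR) of the 27 tested rows for IMQ+H2O minus VAS+H2O and IMQ+XYF minus IMQ+H2O, with filled points for called rows. All 8 filled points are rises by imiquimod, from 1.49 for Itgb2 to 6.05 for Trem3, whose controls were at the floor, and no XYF point is filled.

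Levels between genes can be set side by side only per length, as CPM per kilobase of annotated exon. On that scale the order in IMQ+H2O was led by Retnlg at 28.5 ± 20.6 (SD, n = 3), Slfn4 at 21.1 ± 5.05, Itgb2 at 18.6 ± 3.72, Clec4d at 14.3 ± 7.24 and Itgam at 10.5 ± 2.53, and each differed from the next by less than the larger of their SDs. Pglyrp1 followed at 7.75 ± 0.391 and Fpr2 and Fpr1 at 6.36 ± 2.08 and 5.65 ± 1.62. Ngp was at 1.02 ± 0.721, Ctsg at 0.406 ± 0.198 and Prtn3 at 0.349 ± 0.164. Elane and Mpo were lowest, at 0.0330 ± 0.0572 and 0.0223 ± 0.0228. In VAS+H2O the leaders on this scale were Itgb2 at 6.64 ± 1.39, Slfn4 at 5.17 ± 2.10 and Ccrl2 at 4.69 ± 3.15, while Fpr1 was at 0.0993 ± 0.00688.

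Further neutrophil genes were read from lists by stage. Of 9 other genes of early neutrophils or their precursors, 6 were tested and 0 were called by imiquimod in edgeR, with 0 at an unadjusted p under 0.05 and 0 in DESeq2. The tested ones were Gfi1, Myb, Cd34, Kit, Nkg7 and Ctsc, while Ms4a3, Fcnb and Cebpe were too low to be tested. Mast cells also express Kit, and Cd34 alone had a mean of 309 CPM in VAS+H2O, where the list summed to 414 CPM. How far this list reports on early neutrophils was not tested. Of 8 tested genes of later granules 4 were called higher, namely Lcn2 (3.22 ± 0.23), Chil3 (4.45 ± 0.80), Mmp8 (5.14 ± 0.98) and Hp (2.31 ± 0.43, all log2). Lcn2 encodes lipocalin 2, which binds bacterial siderophores, and Mmp8 encodes the neutrophil collagenase. Of 20 tested rows of mature neutrophil genes 7 were called higher, S100a8 (5.22 ± 0.76), S100a9 (5.20 ± 0.76), Csf3r (3.53 ± 0.48), Ifitm6 (2.44 ± 0.40), Acod1 (4.25 ± 0.80), 1 of the 2 rows of Lilrb4a (1.38 ± 0.22, all log2) and Mrgpra2b, which had no count in VAS+H2O and was at least 24.2-fold above the floor. DESeq2 called 6 of the later granule and 10 of the mature neutrophil list higher. S100a8 and S100a9 form calprotectin, and Csf3r is the receptor of the growth factor G-CSF. The median log2 fold changes of the 3 lists were -0.09, 2.04 and 1.82, and keratinocytes also express several of these genes.

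Partners of the members were read from further lists. Of 4 tested oxidase partners Rac2, the GTPase that activates the oxidase, was called higher (1.78 ± 0.19, edgeR adjusted p = 0.0114). Rac1, a related GTPase on the same list, had the opposite order, at 261 ± 14 CPM in VAS+H2O and 82.3 ± 3.66 CPM in IMQ+H2O (SD, n = 3), with no overlap. It was not called by edgeR (-1.67 ± 0.44, adjusted p = 0.0952) and was called lower by DESeq2. Of 8 receptor adaptors and signalling genes Fcer1g, an adaptor of some of the C-type lectins, was called higher (1.22 ± 0.19, edgeR adjusted p = 0.0292). Tyrobp, which encodes DAP12, was at 0.66 ± 0.23 and was not called. Of 7 tested integrin and selectin partners 0 were called in edgeR or DESeq2, with 2 higher at an unadjusted p under 0.05 in edgeR. Of 16 tested relatives of the receptors and of Slfn4, the lectin genes Clec4a1 (1.50 ± 0.28) and Clec4a2 (1.46 ± 0.27) were called higher by edgeR, and DESeq2 called 9 higher. The remaining formyl peptide receptor genes on that list, 5 in number, were too low to be tested.

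Markers of other cells were read beside these results. Of the 7 neutrophil markers Ly6g and Retnlg are members, and S100a8, S100a9, Cxcr2, Csf3r and Mmp8 stand in the lists by stage. Their sum thus shows the same values again and is not a separate check. It was between 6.65 and 22.3 CPM in VAS+H2O, between 207 and 661 CPM in IMQ+H2O and between 171 and 475 CPM in IMQ+XYF. Most of this sum came from S100a8 and S100a9, with means of 126 and 168 CPM in IMQ+H2O, where the mean sum was 372 CPM. The 12 monocyte and macrophage markers summed to between 626 and 862 CPM in VAS+H2O, between 755 and 1148 CPM in IMQ+H2O and between 706 and 799 CPM in IMQ+XYF. None of the 12 was called by imiquimod in edgeR, and DESeq2 called 3 of them higher (Adgre1, Fcgr1 and Ly6c2). At an unadjusted p under 0.05 in edgeR, 6 were higher and 0 lower, where 2266 and 2428 of the 22430 tested genes were. The 5 eosinophil markers summed to 1.15 CPM at most, with Epx at 0 in all 9 libraries. Itgam, Itgb2, Cybb, Clec4e, Slfn4 and several other members are expressed by monocytes as well, and the part of these cells in the members' levels was not tested.

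**Figure D4:**
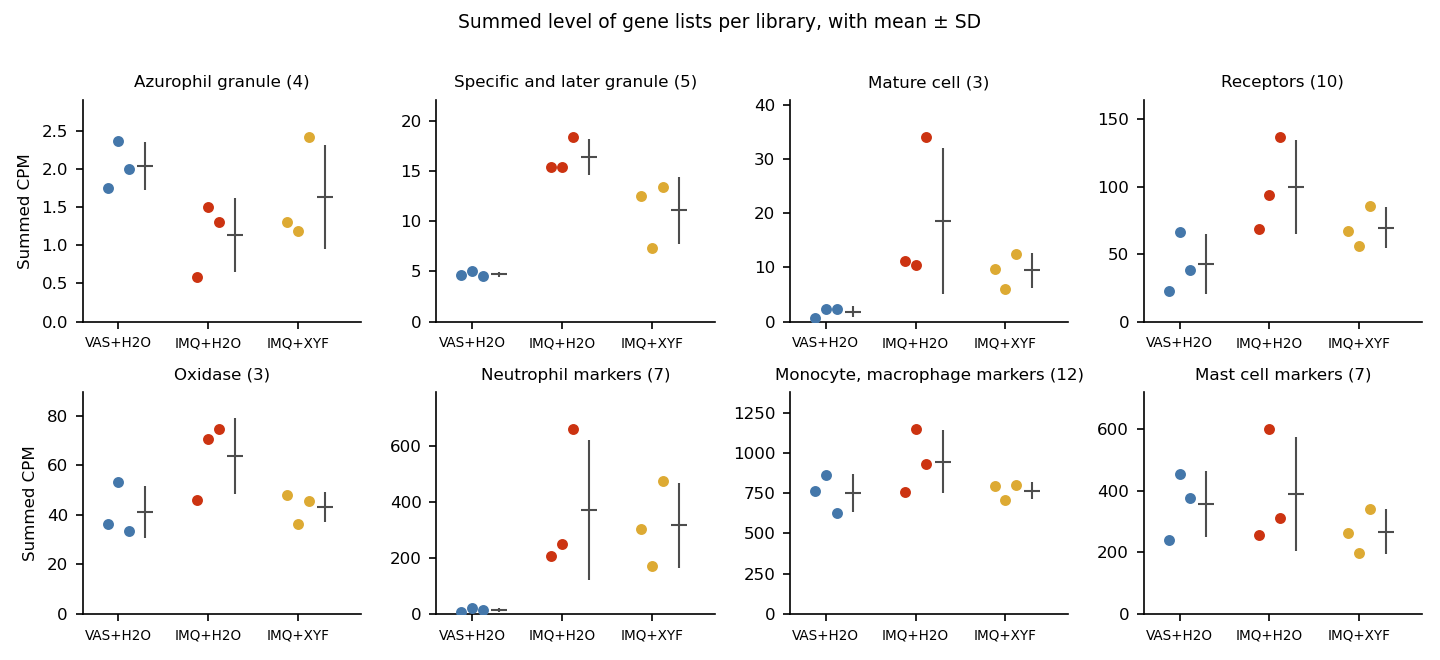
Summed CPM per library of 5 groups of members and 3 marker lists, with the number of rows or genes in brackets and the mean ± SD of 3 libraries beside the points. Azurophil genes stay at or below 2.42 CPM in every library. The sums of later granule genes, mature cell genes and neutrophil markers are higher in all 6 imiquimod-treated libraries than in all controls. Single genes carry most of the first sums. In IMQ+H2O Pglyrp1 has a mean of 14.2 CPM in a later granule sum of 16.4 CPM, and Retnlg 16.9 CPM in a mature cell sum of 18.5 CPM. Camp, Ltf and Padi4 overlap between VAS+H2O and IMQ+H2O. The monocyte, macrophage and mast cell markers overlap between the groups.

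The number of members called by imiquimod changed as single libraries were left out. It was 5 without VAS+H2O 1, 4 without VAS+H2O 2, and 2, which were Fpr1 and Fpr2, without VAS+H2O 3, IMQ+H2O 2 or IMQ+H2O 3. DESeq2 called 16 members, 15 of them higher and Ctsg lower. The shares of all tested genes given in this text are those of the main edgeR fit. No such share was set beside the counts of DESeq2 or of the other edgeR fits. These counts therefore cannot be read against the shares given, and they do not tell if calls changed likewise over all genes.

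IMQ+XYF was set against IMQ+H2O to find the response to the decoction in imiquimod-treated dermis. No member was called in edgeR or DESeq2, where edgeR called 0.00892% of all tested genes in either direction. At an unadjusted p under 0.05, 6 rows were lower (Pglyrp1, Clec4d, Fpr1, Selplg, Ncf1 and Cybb) and 1 was higher (Ctsg), where 1209 and 1424 of the 22430 tested genes were. The fitted log2 fold change was below 0 in 22 of the 27 rows, with a median of -0.47 beside 0.01 over all tested genes. In 3 rows, Pglyrp1, Selplg and Ncf1, all IMQ+XYF libraries were below all IMQ+H2O libraries, where 8.74% of all tested genes were so placed, and in 0 rows all were above, where 9.22% of all tested genes were.

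Pglyrp1 was at -0.57 ± 0.21 on the log2 scale (edgeR adjusted p = 0.382), and its lowest IMQ+XYF library was the second. Selplg was at 15.2, 14.7 and 14.6 CPM in IMQ+XYF, a narrow range just under the lowest IMQ+H2O library at 17.2 CPM (-0.75 ± 0.25, edgeR adjusted p = 0.371). Ncf1 was at 15.5, 11.0 and 16.0 CPM in IMQ+XYF (-0.52 ± 0.22, edgeR adjusted p = 0.421). Cybb was at 23.4, 18.7 and 19.6 CPM (-0.72 ± 0.24, edgeR adjusted p = 0.378), and 1 IMQ+XYF library equalled the lowest IMQ+H2O library to 3 digits.

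Of the 5 receptors that edgeR called higher by imiquimod, 0 were called by XYF in edgeR or DESeq2. Fpr1 was at -0.49 ± 0.22 (edgeR adjusted p = 0.424), Fpr2 at -0.39 ± 0.31, Trem1 at -0.49 ± 0.60, Trem3 at -0.47 ± 0.68 and Clec4d at -0.92 ± 0.40 (edgeR adjusted p = 0.424), all as log2 fold changes. Retnlg was at -1.13 ± 0.81 and Ngp at -1.45 ± 0.83, and for both the IMQ+XYF and IMQ+H2O libraries overlapped. Itgam was at 0.30 ± 0.34 from its first row and at -0.03 ± 0.28 with both rows summed, and its second row at -4.02 ± 2.54. For all 10 receptors the libraries of IMQ+XYF and IMQ+H2O overlapped. In the lists of other early, later granule and mature neutrophil genes no row was called by XYF in edgeR or DESeq2, with 1, 1 and 0 lower and 0, 1 and 1 higher at an unadjusted p under 0.05 in edgeR. In the lists of partners and relatives edgeR called none by XYF, with 1 higher and 3 lower at an unadjusted p under 0.05, and DESeq2 called Rac1 higher and Hcst, which encodes DAP10, lower.

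The third IMQ+H2O library had a large part in these values. It was the highest IMQ+H2O library in 18 of the 27 rows. Its neutrophil markers, mostly S100a8 and S100a9, summed to 661 CPM against 207 and 249 CPM in the other 2. Without it, 14 rows were fitted lower by XYF and 13 higher, and the median was -0.07. Within IMQ+XYF the second library was the lowest in 17 of the 27 rows, with neutrophil markers at 171 CPM against 304 and 475 CPM. The 4 keratinocyte markers summed to between 1880 and 2837 CPM in IMQ+H2O and between 3487 and 13484 CPM in IMQ+XYF, with all 4 higher at an unadjusted p under 0.05. Of these 0 were called by XYF in edgeR, while DESeq2 called Krt10 and Krt14 higher. Of the 12 monocyte and macrophage markers 11 were fitted lower by XYF, with a median log2 fold change of -0.57 and 4 lower at an unadjusted p under 0.05 in edgeR, and 0 were called in edgeR or DESeq2. All 7 mast cell markers were fitted lower, with a median of -0.64, 3 lower at an unadjusted p under 0.05 and 0 called in edgeR, while DESeq2 called Ms4a2 lower. The mast cell markers summed to between 197 and 342 CPM in IMQ+XYF. The part of these cells in the members' values was not tested.

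IMQ+XYF was set against VAS+H2O to find how far dermis treated with both stood from the control. It shares its control libraries with the change by imiquimod. Again 8 members were called higher in edgeR, Fpr1, Fpr2, Trem1, Trem3, Clec4d, Itgam, Itgb2 and Pglyrp1, where 0.695% of all tested genes were called higher. None was called lower, where 0.508% of all tested genes were. All IMQ+XYF libraries were above all controls in 14 rows and below in 1, Ctsg, where 11.7% and 10.3% of all tested genes were so placed. The median log2 fold change was 1.07, beside -0.02 over all tested genes.

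Fpr1 was 39.9-fold higher in IMQ+XYF than in VAS+H2O (log2 fold change 5.32 ± 0.28, edgeR adjusted p = 0.000487) and Fpr2 was 15.7-fold higher (3.97 ± 0.37, edgeR adjusted p = 0.0107). Trem1 was higher by 4.58 ± 0.74 (edgeR adjusted p = 0.0300), and Trem3 stood at least 13.4-fold above the floor (edgeR adjusted p = 0.0400). Itgam was higher by 2.85 ± 0.37, Clec4d by 2.16 ± 0.43, Itgb2 by 1.18 ± 0.18 and Pglyrp1 by 1.13 ± 0.21, with edgeR adjusted p from 0.0173 to 0.0453. Retnlg (3.59 ± 0.93), Ngp (3.88 ± 1.14), Cd177 (3.16 ± 0.83) and Slfn4 (1.71 ± 0.48) were above every control library and were not called by edgeR, while DESeq2 called all 4 (adjusted p from 0.00295 to 0.0355). In the lists by stage, edgeR called 0 early, 3 later granule and 6 mature neutrophil rows higher, and DESeq2 0, 6 and 9. Ms4a3, Fcnb and Cebpe of the early list were again too low for the edgeR test.

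The oxidase genes Cybb and Ncf1 and the ligand Selplg had fitted differences from the control below their SE. Their log2 fold changes from VAS+H2O were -0.20 ± 0.24, 0.08 ± 0.22 and -0.19 ± 0.25, with overlapping libraries. The differences of Padi4, Clec5a, Mefv, Camp and the second Itgam row were below their SE as well. None of these genes, nor the second row, was called by imiquimod in edgeR or DESeq2. Ctsg was at -0.82 ± 0.40 (edgeR adjusted p = 0.318). The count of 8 fell to 2 in the edgeR fit of both groups alone, to 3 without VAS+H2O 1, to 2 without VAS+H2O 2 or VAS+H2O 3, to 5 without IMQ+H2O 1, to 4 without IMQ+H2O 2, to 2 without IMQ+XYF 1 and to 3 without IMQ+XYF 3, and DESeq2 called 13. Fpr1 and Fpr2 were called in each of these fits, beside which no share of all tested genes was set.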

How the data were processed

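RNA-seq libraries of mouse ear dermis were analysed from the deposited table of raw read counts per Ensembl gene, which the authors made without normalization. Per the labels the tools included STAR 2.5 and DESeq 1.22.1, and the methods name GRCm38 and Ensembl release 90. How reads with several alignments or the strand were handled is not given in the sources used here, so overlapping and antisense genes may share counts.

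All 9 libraries entered 1 quasi-likelihood fit in edgeR 4.0.16 (R 4.3.3) with filterByExpr, TMM factors and Benjamini-Hochberg adjustment over 22430 genes. SEs were derived from the F statistic, as the size of the log2 fold change over the root of F. Where no library of the lower group had over 3 counts, the fold is a bound at that floor. Alternatives were DESeq2 1.42.0, its size factors, no filter, both groups alone, a replicate block, no minimum fold, each library left out, and Itgam rows summed.

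Every member was named. Members and lists were chosen with earlier results of these data known. A gene was taken out of the further lists and is not reported here. Gene models are GENCODE vM21, matched by identifier, and promoters are from RefSeq (GRCm38.p6); an entry was missing for Trem3, Itgb2, Selplg and Ncf4. Pairs of replicates differed by more than counting error (chi-squared per degree of freedom 37.7 to 224).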

Additional observations from a re-analysis of the deposited data

How the results depend on the processing

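The count of members called by imiquimod was 8 under other size factors, without a filter, without a minimum fold and with Itgam summed, 11 with both groups alone and 16 in DESeq2, and ran from 2 to 11 as each library was left out. For XYF it was 0 throughout, and the median of -0.47 ran from -0.648 to -0.0686. For IMQ+XYF against VAS+H2O the 8 became 13 in DESeq2, 2 with both groups alone, and 2 to 8 with a library left out. The cause was not tested, and no share of all tested genes was set beside the counts of the alternative fits. Replicate numbers are shared by the groups, but same-numbered libraries correlated in their deviations at 0.125, 0.0713 and -0.0236 (VAS+H2O and IMQ+H2O), so they were not treated as pairs. With the replicate block 8, 0 and 5 members were called: by imiquimod Slfn4 was called and Trem3 was not, and against the control Trem3, Clec4d and Pglyrp1 were not. In that fit Prtn3 turned to 0.0878 for XYF. With Itgam summed its change by XYF turned to -0.0342.

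Log2 fold changes that turned sign with a library left out were all uncalled. By imiquimod they were Padi4 (-0.52 to 0.65), Ccrl2 (-0.82 to 0.19), Ptafr (-0.64 to 0.24), Mefv (-0.27 to 0.66) and the second Itgam row (-1.69 to 10.3). By XYF they were Prtn3 (-0.50 to 0.22), Cd177 (-0.20 to 0.93), Padi4 (-0.19 to 0.91), Clec4e (-0.285 to 0.0114), Clec5a (-0.87 to 0.00652), Trem1 (-0.87 to 0.28), Trem3 (-0.83 to 0.29), Ncf4 (-0.51 to 0.15), Mefv (-0.89 to 0.0625) and the second Itgam row (-10.5 to 0.50). Against the control they were Camp (-0.38 to 0.50), Clec5a (-0.13 to 0.54), Selplg (-0.38 to 0.0121), Ncf1 (-0.0340 to 0.32), Cybb (-0.34 to 0.0385), Mefv (-0.66 to 0.18) and the second Itgam row (-7.67 to 6.28). With 3 libraries a group and a common coefficient of variation of 0.296, small differences were not detectable, and Mpo, Elane, Ltf and Ly6g were too low to test.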
